A study of Mus musculus with 10 samples.

Results

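The STAT transcription factors and their SOCS feedback inhibitors were followed at the RNA level in mouse bone marrow-derived macrophages (BMDMΦs). The genes are Stat2, Stat3, Stat5a, Stat5b and Stat6, and the inhibitors Socs1, Socs2, Socs3 and Cish. They were chosen by gene symbol, as 9 of the 19505 named genes, and each is read by 1 of the 22206 probe sets on the array. The remaining members of both families were not analysed here, apart from the SOCS genes named among the regulators below.

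The study compared BMDMΦs exposed to conditioned medium (CM) from cancer-associated fibroblasts (CAFs) with macrophages polarised by a cytokine, on 10 Clariom S mouse arrays. The 5 conditions lasted 48 h and had 2 arrays each: KO CAF CM, from CAFs without Snai1; WT CAF CM, from CAFs with Snai1; IL4 at 10 ng per ml; IFNγ at 100 units per ml; and not stimulated, in DMEM-based complete medium. Snai1 encodes Snail1, a transcription factor of fibroblast activation. All the macrophages were grown from marrow of male C57Bl/6J mice aged 8 to 12 weeks, in medium with L929-conditioned medium as the supply of M-CSF. The CAFs were serum-starved for 24 h before their medium was collected, and the arrays analysed here include no macrophages in unconditioned serum-free medium, so the effect of the medium itself cannot be told apart from that of CAF products. The sample titles attach the knockout to the CAFs, whereas a free-text label of the same samples attaches it to the macrophages; the titles and the methods were followed. Neither source gives the origin of the duplicates (mouse, culture or RNA) or the number of CAF lines of each genotype, so the p-values below measure only the spread between these arrays, which may be technical.

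Cytokine receptors carry JAK kinases, which phosphorylate STAT proteins; these then pair, enter the nucleus and bind DNA. STAT6 carries the IL4 signal, STAT3 that of IL6 and IL10, STAT2 that of the type I interferons as part of the complex ISGF3, and the closely related STAT5A and STAT5B that of GM-CSF and other growth factors. CIS, the product of Cish, and SOCS1 to SOCS3 are themselves induced by STATs and switch receptor signalling off again, so their RNA is often read as a trace of recent cytokine signalling. STAT activity depends on phosphorylation, which an RNA array does not measure.

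The arrays had much the same distribution, which the normalisation of the deposited values sets in large part. The median log2 signal per array ranged from 5.57 to 5.71, with a correlation of 0.9936 to 0.9952 between duplicates over all probe sets. The WT CAF CM arrays stood apart in 1 respect: 39 probe sets differed more than 4-fold between them, against 6 to 14 in the other conditions. The 9 measured macrophage markers averaged a log2 signal of 15.06 to 16.12 on every array. The 9 fibroblast markers averaged 4.56 to 4.85, and none of them exceeded 6.42 as a condition mean. Single macrophage markers still changed: 2 rose and 1 fell with KO CAF CM, and 3 rose with WT CAF CM. With IL4 3 fell, and with IFNγ 1 rose and 1 fell. Cd14 fell by 3.57 with IL4 and by 4.28 with IFNγ, but rose by 0.78 with KO and 0.74 with WT CAF CM. Mertk fell by 2.52 with KO CAF CM and by 1.04 with IL4. Markers of other myeloid cells also moved with the conditions. The mean of 5 monocyte markers was 9.92 to 11.06 with either CAF CM, 7.09 to 7.32 with IL4, 8.7 to 9.14 with IFNγ and 7.81 to 7.9 without stimulation, with Ly6c2, Hp and Gsr higher and Ccr2 lower in both CAF CM. The mean of 9 neutrophil markers was 6.15 to 6.89 with CAF CM and 5.86 to 5.96 without stimulation; 2 rose and 2 fell with KO CAF CM and 3 rose with WT CAF CM. S100a8 rose with both (by 4.58 and 4.38) and reached 12.88, while Mmp8, at up to 13, fell by 1.14 with KO CAF CM, rose by 1.59 with WT CAF CM and fell by 3.77 with IFNγ. The granule genes Camp, Ngp, Ltf, Elane and Mpo stayed at or below 5.82 on every array; of these, Camp rose with both CAF CM (by 1.02 and 0.91) and Ltf fell by 0.93 with KO CAF CM. Of 7 dendritic cell markers, Clec9a and Xcr1 rose with IFNγ, and the mean of the 7 was 6.25 to 6.26 with IFNγ, against 4.49 to 4.52 without stimulation. The part of these markers in the results below was not tested, and in a bulk extract fewer cells of a type cannot be told apart from less RNA per cell.

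Promoter stretches of Stat2, Socs1, Socs3 and Cish are shown first because they hold DNA words that STAT complexes read. RefSeq windows on GRCm38.p6, from 250 bases before to 50 bases after the annotated start, were found for 8 of the 9 genes, in 10 windows, with none used for Socs2. Both strands were searched for TTCNNNGAA, bound by most STAT dimers, for the wider form with TTC and GAA 4 bases apart, preferred by STAT6, and for GAAA repeated after 2 bases, the core of the interferon-stimulated response element read by ISGF3 and interferon regulatory factors. Of all 32851 mouse windows, 8.3% held the narrow STAT form, 7.0% the wide form and 3.4% the response element core. Capitals mark the matches, with up to 30 bases on either side, and each stretch is written 5′ to 3′ on the strand of its gene.
Stat2, chr10:128270248-128270327, plus strand: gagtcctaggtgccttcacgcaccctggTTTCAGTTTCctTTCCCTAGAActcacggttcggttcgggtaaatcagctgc
Socs1, chr16:10785574-10785649, minus strand: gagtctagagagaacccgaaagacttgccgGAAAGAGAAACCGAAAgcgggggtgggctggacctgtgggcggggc
Socs3, chr11:117969482-117969550, minus strand: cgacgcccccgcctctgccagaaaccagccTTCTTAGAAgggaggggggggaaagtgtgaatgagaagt
Cish, chr9:107296629-107296678, plus strand: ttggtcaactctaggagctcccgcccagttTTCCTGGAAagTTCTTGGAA

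The Stat2 window held a response element core on the opposite strand and, 2 bases further on, the wider STAT form. The Socs1 window held 2 overlapping response element cores. The Socs3 window held 1 TTCNNNGAA match starting at -154, where 0 is the first base of the gene. The Cish window held 2 such matches, at 0 to 8 and at 11 to 19, so that its printed stretch ends within the transcribed part. The windows of Stat3, Stat5a, Stat5b and Stat6 held none of these words. Stat5b, Stat5a and Stat3 are consecutive protein-coding genes on chromosome 11. A match describes the sequence only, and binding was not measured.

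The inhibitors covered a wider range than the STAT genes: the 5 condition means spanned 2.37 to 7.72 log2 units for each inhibitor and 0.44 to 2.23 for each STAT gene. Socs3 was highest with CAF CM, Socs1 with IFNγ, and Socs2 and Cish with IL4; Stat2 and Stat3 were highest with IFNγ; Stat5a, Stat5b and Stat6 stayed within 0.53 log2 units over the 5 condition means. A gene was called changed at an adjusted p under 0.05 (limma, Benjamini-Hochberg over all 22206 probe sets). Against unstimulated macrophages, KO CAF CM raised 2 of the 9 genes, Socs1 and Socs3, while 14.8% of all probe sets changed in either direction and 6.83% rose. WT CAF CM raised 3, Stat3, Socs1 and Socs3, where 8.56% of all probe sets changed and 4.08% rose. IL4 raised 3, Socs1, Socs2 and Cish, where 4.04% changed and 1.66% rose. IFNγ raised 4, Stat2, Stat3, Socs1 and Socs3, where 12.1% changed and 5.38% rose. These 4 comparisons share the 2 unstimulated arrays. Between stimulated conditions, 4 of the 9 genes differed for KO CAF CM against IL4 (14.8% of all probe sets), 5 for WT CAF CM against IL4 (11%), 3 for KO CAF CM against IFNγ (14.1%), 4 for WT CAF CM against IFNγ (11.6%) and 6 for IL4 against IFNγ (12%). Over the 10 pairwise comparisons of the conditions, 22 of 40 tests of the inhibitors passed and 12 of 50 tests of the STAT genes. In each comparison, 1.36% to 14.8% of all probe sets changed. The comparisons reuse the same 10 arrays, so these tests are not independent.

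**Figure D1:**
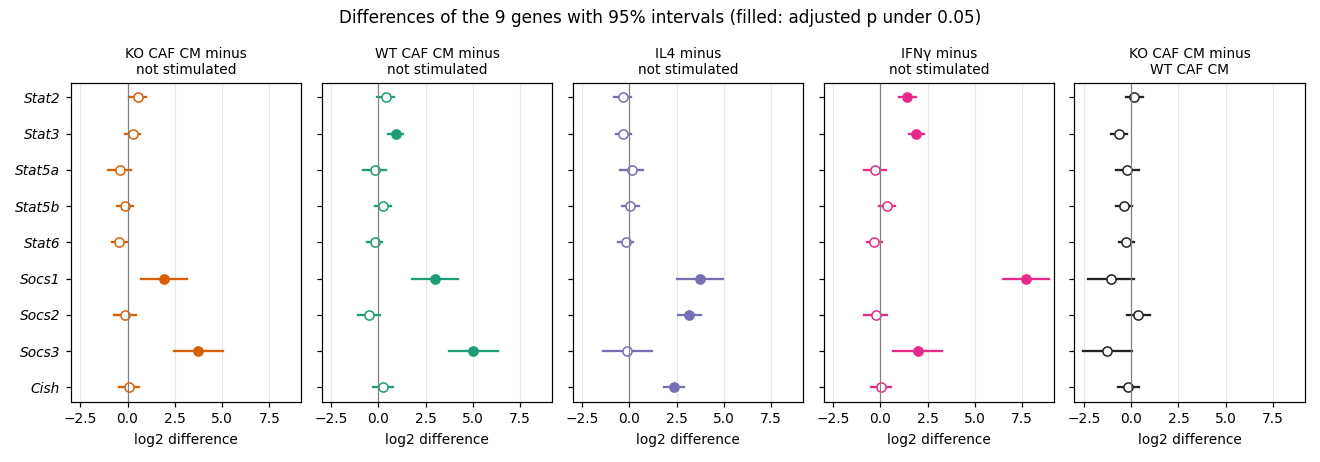
Log2 differences of the 9 genes (horizontal axis) in KO CAF CM, WT CAF CM, IL4 and IFNγ minus not stimulated, and in KO CAF CM minus WT CAF CM. Points are estimates from 2 arrays per condition, bars are 95% intervals and filled points passed the test; Socs1 lies to the right in all 4 stimulated conditions (1.92 to 7.71), whereas Socs2 and Cish do so with IL4, and no point is filled between the CAF CM.

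Socs3, whose product blocks receptors that use the gp130 chain of the IL6 receptor, was the member with the largest response to CAF CM. Its log2 signal was 8.49 and 7.83 on the KO CAF CM arrays, 8.2 and 10.66 with WT CAF CM, 3.95 and 4.65 with IL4, 6.26 and 6.55 with IFNγ, and 4.66 and 4.16 without stimulation. All 4 CAF CM arrays lay above every other array, and WT CAF CM replicate 2 was the highest of all by more than 2 log2 units. The unstimulated and IL4 signals lay below the lowest array median (5.57), a dim range where differences can be understated. Against unstimulated macrophages, Socs3 rose by 3.75 log2 units after KO CAF CM (SE 0.59, 13.45-fold, limma adjusted p = 0.00108) and by 5.02 after WT CAF CM (SE 0.59, 32.45-fold, adjusted p = 0.000212). For WT CAF CM, omitting its replicate 2 gave a difference of 3.79 and omitting its replicate 1 gave 6.25, and both passed the test.

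IFNγ gave a smaller Socs3 difference of 1.99 (SE 0.59, 3.99-fold, limma adjusted p = 0.0485). It lost its call when any of the 4 arrays was left out (adjusted p = 0.119 to 0.218) and with the moderation set by signal level (0.116) or median centring of the arrays (0.0533). With IL4 the Socs3 groups overlapped, and the difference was -0.11 with a 95% interval of -1.4 to 1.18. In the order of levels, WT CAF CM exceeded IFNγ by 3.03 (adjusted p = 0.00458; 1.79 when WT CAF CM replicate 2 was omitted and 4.26 when its replicate 1 was, both past the test), whereas KO CAF CM did so by 1.76 without passing (adjusted p = 0.0755). IL4 was lower than IFNγ by 2.1 log2 units (adjusted p = 0.0371), a call that leaving out any 1 of the 4 arrays ended.

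Socs1, whose product inhibits JAK kinases directly and restrains IFNγ and IL4 signalling, was the only member called against unstimulated macrophages in all 4 stimulated conditions. Its log2 signal was 7.79 and 5.95 after KO CAF CM, 7.19 and 8.72 after WT CAF CM, 8.46 and 8.88 with IL4, 12.6 and 12.71 with IFNγ, and 4.59 and 5.3 without stimulation. The IFNγ arrays stood clear of the rest, the CAF CM and IL4 arrays formed a middle range, and every stimulated array lay above both unstimulated ones. Both unstimulated signals were dim, below the lowest array median (5.57). Socs1 rose by 7.71 log2 units with IFNγ (SE 0.56, 209.4-fold, limma adjusted p = 2.94e-06), the largest difference of any member, and by 3.73 with IL4 (SE 0.56, 13.22-fold, adjusted p = 0.00274).

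WT CAF CM raised Socs1 by 3.01 log2 units (SE 0.56, 8.06-fold, limma adjusted p = 0.00503). The call ended without WT CAF CM replicate 2 (2.24, adjusted p = 0.0556) or without unstimulated replicate 1 (2.66, adjusted p = 0.0568), and the difference was 3.78 without WT CAF CM replicate 1. KO CAF CM raised Socs1 by 1.92 (SE 0.56, 3.8-fold, adjusted p = 0.0373), from 2 arrays that differed by 1.84 log2 units. The difference was 2.85 and passed without KO CAF CM replicate 2, but was 1.01 without KO CAF CM replicate 1, 1.57 without unstimulated replicate 1 and 2.28 without unstimulated replicate 2, and passed in none of these 3. Nor did it pass with moderation by signal level (limma adjusted p = 0.0875). In the order of levels, IL4 lay below IFNγ by 3.98 (adjusted p = 0.000405); WT CAF CM was not told apart from IL4 (-0.72, 95% interval -1.93 to 0.5), and KO CAF CM missed the threshold against IL4 (-1.8, 95% interval -3.02 to -0.58, adjusted p = 0.0504). That last difference was -2.72 and passed without KO CAF CM replicate 1 (adjusted p = 0.00554), and was -0.88 without KO CAF CM replicate 2.

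Socs2, best known as the inhibitor of growth hormone signalling through STAT5, responded to IL4. Its log2 signal was 8.59 and 9.09 with IL4, against 6 and 5.33 without stimulation, and it lay between 5.03 and 5.8 on the 6 other arrays. The IL4 arrays were the highest by a wide gap, and the other 4 conditions lay between 5.03 and 6. The difference between IL4 and no stimulation was 3.17 (SE 0.27, 9.03-fold, limma adjusted p = 5.13e-05), and IL4 exceeded IFNγ by 3.42 (adjusted p = 5.01e-06). KO CAF CM lay 3.3 and WT CAF CM 3.67 log2 units below IL4, both past the test. Against no stimulation, the Socs2 difference was -0.13 with KO CAF CM (95% interval -0.72 to 0.47), -0.5 with WT CAF CM (-1.1 to 0.1) and -0.25 with IFNγ (-0.85 to 0.35), none of them past the test.

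Cish, the founding member of the SOCS family and a classical STAT5 target, was also highest with IL4, at a dim signal. It was 5.32 and 5.99 with IL4, against 3.09 and 3.48 without stimulation, and 3.18 to 3.65 on the 6 other arrays. Both IL4 arrays lay above all others, none of which reached the array median. IL4 raised Cish by 2.37 log2 units (SE 0.25, 5.17-fold, limma adjusted p = 0.00021), with 2.03 to 2.71 when 1 of the 4 arrays was left out. The difference was 0.08 with KO CAF CM (95% interval -0.46 to 0.62), 0.23 with WT CAF CM (-0.31 to 0.76) and 0.03 with IFNγ (-0.51 to 0.57). Across the 10 arrays, Socs2 and Cish correlated at r = 0.95, a value that rests on the 2 IL4 arrays standing apart from the other 8.

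**Figure D2:**
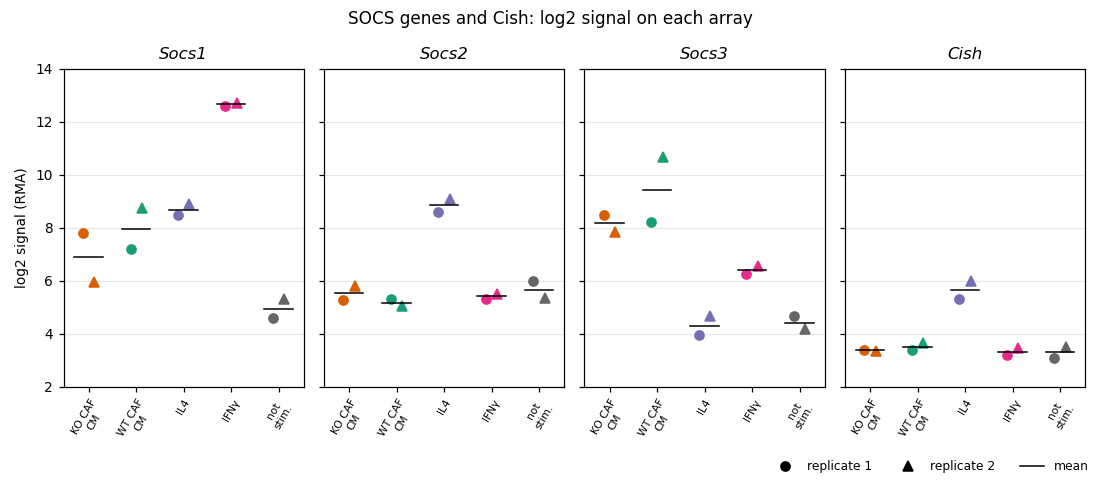
Log2 signal (vertical axis) of Socs1, Socs2, Socs3 and Cish on each of the 10 arrays, by condition. Circles are replicate 1, triangles replicate 2 and bars the mean of both; Socs3 is highest with CAF CM with a wide gap between the WT CAF CM arrays (8.2 and 10.66), Socs1 with IFNγ, and Socs2 and Cish with IL4.

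Among the STAT genes, Stat3 covered the widest range. Its log2 signal was 12.76 and 12.51 after KO CAF CM, 13.22 and 13.34 after WT CAF CM, 12.13 and 11.99 with IL4, 14.18 and 14.39 with IFNγ, and 12.44 and 12.3 without stimulation. The 5 pairs of arrays did not overlap, in the order IFNγ, WT CAF CM, KO CAF CM, not stimulated and IL4. IFNγ raised Stat3 by 1.91 log2 units (SE 0.19, 3.77-fold, limma adjusted p = 3.08e-05). WT CAF CM raised it by 0.91 (SE 0.19, 1.88-fold, adjusted p = 0.00902), a call that ended without WT CAF CM replicate 2 (adjusted p = 0.0795) or unstimulated replicate 2 (adjusted p = 0.0743). With KO CAF CM the difference was 0.27 (95% interval -0.14 to 0.67, adjusted p = 0.445) and with IL4 -0.31 (-0.72 to 0.1, adjusted p = 0.492). Of the neighbours in that order, IFNγ and WT CAF CM differed (-1 for WT CAF CM minus IFNγ, adjusted p = 0.00323); the other neighbouring pairs did not pass.

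Stat2, the interferon-specific STAT, was 14 and 14 after KO CAF CM, 13.67 and 14 after WT CAF CM, 12.95 and 13.27 with IL4, 14.87 and 14.9 with IFNγ, and 13.28 and 13.64 without stimulation. The IFNγ arrays were the highest, the CAF CM arrays lay just above the unstimulated ones, and the IL4 arrays lay just below them. IFNγ raised Stat2 by 1.42 log2 units (SE 0.21, 2.69-fold, limma adjusted p = 0.000628). KO CAF CM gave 0.54 (95% interval 0.09 to 0.99, adjusted p = 0.115) and WT CAF CM 0.38 (-0.08 to 0.83, adjusted p = 0.369). KO CAF CM was higher than IL4 by 0.89 (adjusted p = 0.0113) and lower than IFNγ by 0.88 log2 units (adjusted p = 0.0119), and WT CAF CM was higher than IL4 by 0.73 (adjusted p = 0.0428) and lower than IFNγ by 1.05 log2 units (adjusted p = 0.00474). Each of these 4 calls ended when certain arrays were left out: the first without KO CAF CM replicate 1 or IL4 replicate 1, the KO CAF CM against IFNγ and WT CAF CM against IL4 calls without any 1 of their 4 arrays, and the last without WT CAF CM replicate 1. Stat2 and Stat3 correlated at r = 0.9 over the 10 arrays, which share 5 conditions.

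Stat6, through which IL4 signals, changed little. Its log2 signal was 14.46 and 14.44 after KO CAF CM, 14.66 and 14.73 after WT CAF CM, 14.56 and 14.81 with IL4, 14.57 and 14.59 with IFNγ, and 14.81 and 14.96 without stimulation. The unstimulated arrays were at or near the top and the KO CAF CM arrays at the bottom of a narrow range. KO CAF CM minus not stimulated was -0.44 (95% interval -0.82 to -0.05, adjusted p = 0.143), and the IL4 difference was -0.2 (-0.59 to 0.19).

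Stat5a and Stat5b, which encode near-identical partners, had no difference past the test; whether the probes keep the 2 transcripts fully apart was not tested. Stat5a was 9.95 and 9.3 after KO CAF CM, 10.2 and 9.47 after WT CAF CM, 10.27 and 10.04 with IL4, 9.66 and 9.85 with IFNγ, and 10.17 and 9.89 without stimulation. Its CAF CM arrays differed by up to 0.73 within a condition, more than the 0.53 between the highest and lowest condition mean. Stat5b lay between 8.98 and 9.67 on all arrays, with IFNγ highest at 9.62 and 9.67. Against no stimulation, the adjusted p of the 2 genes lay between 0.361 and 0.932.

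**Figure D3:**
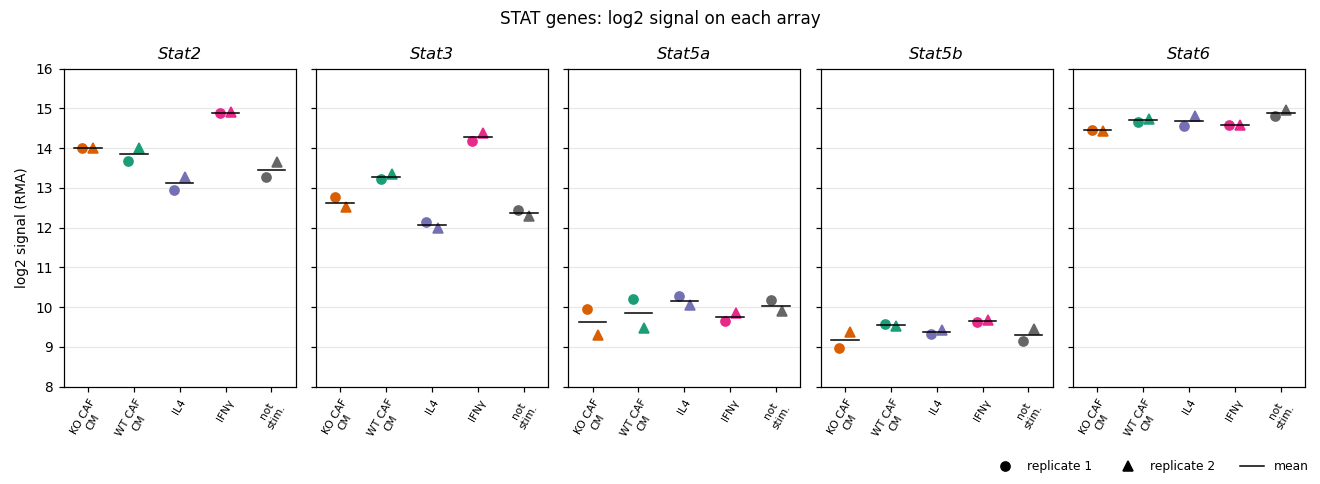
Log2 signal (vertical axis) of Stat2, Stat3, Stat5a, Stat5b and Stat6 on each of the 10 arrays, by condition, with circles for replicate 1, triangles for replicate 2 and bars for their mean. The IFNγ arrays are highest for Stat2 (14.87 and 14.9) and Stat3 (14.18 and 14.39), and the condition means lie within 0.53 log2 units for the other genes.

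The comparison of KO with WT CAF CM asks whether Snai1 in the fibroblasts changes the macrophage response. None of the 9 genes passed (limma, all probe sets), where 1.36% of all probe sets did; 1 member, Stat3, had an unadjusted p under 0.05 by limma, and the ordinary test of Student gave 2 members unadjusted and none after adjustment. Stat3 was lower with KO CAF CM by 0.64 log2 units (SE 0.19, 1.56-fold, 95% interval -1.05 to -0.24, adjusted p = 0.16), and its groups did not overlap. Stat5b and Stat6 were the other members without overlap, with differences of -0.38 and -0.25; 37.1% of all probe sets did not overlap in this comparison.

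Socs1 and Socs3 had the widest intervals between the CAF CM, with duplicates up to 1.84 log2 units apart for Socs1 and 2.46 for Socs3. The KO minus WT difference was -1.08 for Socs1 (95% interval -2.3 to 0.13, adjusted p = 0.543) and -1.27 for Socs3 (-2.56 to 0.02, adjusted p = 0.488), with overlapping groups. Without WT CAF CM replicate 1, the Socs3 difference was -2.5 and passed (adjusted p = 0.00939); without WT CAF CM replicate 2 it was -0.04. For Socs1 the corresponding range was -2 to -0.16 and nothing passed. A difference of several fold in either inhibitor lay within these intervals.

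**Figure D4:**
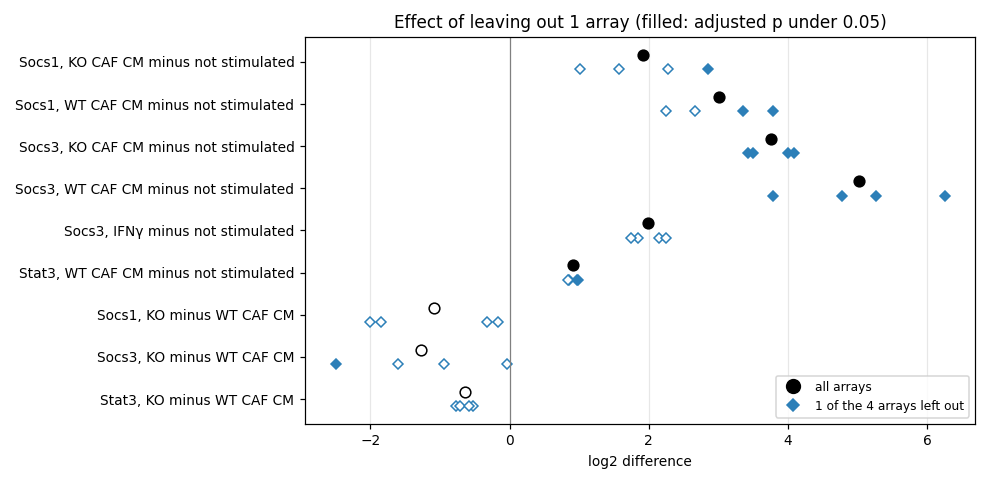
Log2 differences (horizontal axis) of Socs1, Socs3 and Stat3 with all arrays (circles) and with 1 of the 4 arrays of the comparison left out (diamonds); filled symbols passed the test. Socs3 stays called against not stimulated with both CAF CM, whereas the KO minus WT difference of Socs3 spans -2.5 to -0.04 depending on the array removed.

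Further genes of the pathway were read in lists compiled from general knowledge. The lists were chosen with earlier results of these data known, so they are not an independent test. Their counts stand against 14.8% of all probe sets changed with KO CAF CM, 8.56% with WT CAF CM, 4.04% with IL4 and 12.1% with IFNγ, and against medians over all probe sets of -0.01, -0.02, 0 and -0.01. Of 14 ligand genes, 2 rose with KO CAF CM (median log2 difference 0.01), 1 with WT CAF CM (0.02), none with IL4 (-0.07) and 3 with IFNγ (-0.02), with none lower; the CAF CM counts are near the share of all probe sets. Il6, the classical activator of STAT3, had a log2 signal of 9.27 and 9.34 after KO CAF CM, 8.1 and 8.68 after WT CAF CM, and 4.1 and 3.67 without stimulation, so that it rose by 5.42 (limma adjusted p = 5.77e-08) and 4.5 (adjusted p = 4.12e-07). Il10, which signals through STAT3 in macrophages, was 9.47 and 10.46 after KO CAF CM, 7.41 and 6.99 after WT CAF CM, and 7.44 and 7.95 without stimulation. It was higher with KO than with WT CAF CM by 2.76 (adjusted p = 0.00385), and the 2 groups were far apart. IFNγ raised Il10 by 1.65, Csf1, the gene of M-CSF, by 1.58 and Il27 by 3.14.

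Receptor chains were called in both directions. Of 16 measured, 2 rose and 5 fell with KO CAF CM (median -0.05), 2 rose and 2 fell with WT CAF CM (0.2), 3 rose and 2 fell with IL4 (-0.2), and 3 rose and 3 fell with IFNγ (-0.25). Il6st, which encodes gp130, was 11.48 and 11.31 after KO CAF CM, 12.57 and 12.02 after WT CAF CM, and 14.3 and 13.82 without stimulation; it fell by 2.66 (limma adjusted p = 1.8e-05) and 1.76 (adjusted p = 0.000585), but rose by 1.53 with IL4. Lifr, its partner chain for LIF, also fell with both CAF CM (by 1.05 and 0.89) and rose by 1.61 with IFNγ. Il4ra, which binds IL4, rose by 0.95 with KO CAF CM, by 1.86 with WT CAF CM and by 1.73 with IFNγ. Csf3r, the G-CSF receptor, rose by 0.91 with KO CAF CM, 2.08 with WT CAF CM and 1.11 with IL4. Between the CAF CM, Csf3r (-1.16, adjusted p = 0.0243) and the IL6 receptor gene Il6ra (-1.11, adjusted p = 0.0295) were lower with KO. Ifngr1 fell with KO CAF CM and IFNγ, as did Il10rb, Il6ra fell with KO CAF CM, and Ifnar1 fell with IFNγ. Il10ra rose with IFNγ by 1.2 but fell with IL4. Il13ra1 was called with IL4 only, where it fell, and Csf2rb rose with IL4 by 1.18.

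Of 23 JAKs and other regulators, 5 rose and 2 fell with KO CAF CM (median 0.1), 5 rose with WT CAF CM (-0.03), 2 rose and 1 fell with IL4 (-0.12), and 5 rose and 2 fell with IFNγ (-0.13). Jak2, the kinase of the IFNγ and growth factor receptors, had a log2 signal of 14.01 and 13.92 after KO CAF CM, 13.56 and 14.29 after WT CAF CM, 13.06 and 13.01 with IL4, 12.85 and 12.9 with IFNγ, and 11.32 and 11.13 without stimulation. It rose in all 4 stimulated conditions, by 2.74, 2.7, 1.81 and 1.65 in that order. Usp18, which restrains the type I interferon receptor, rose by 2.64, 2.04 and 2.03 with KO CAF CM, WT CAF CM and IFNγ. The phosphatase gene Ptpn6 rose by 1.39, 1.08 and 1.06 in the same conditions and fell by 1.01 with IL4. Ptpn1 rose by 0.88 with KO CAF CM and by 0.82 with WT CAF CM, Ptpn11 by 0.89 with KO CAF CM, Ptpn2 by 1.51 and the kinase gene Tyk2 by 0.96 with IFNγ, and Cbl by 0.9 with IL4. Socs6 fell by 1.76 with KO CAF CM and by 1.25 with IFNγ, and Pias2 by 0.66 with KO CAF CM. Sh2b2, an adaptor of JAK2, fell by 2.4 with IFNγ, rose by 1.26 with WT CAF CM, and was lower with KO than with WT CAF CM by 1.35 log2 units (adjusted p = 0.018).

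Target genes of the same pathways were read from such lists as well. Of 23 targets of IL4 and STAT6, 18 rose with IL4 (median log2 difference 2.59, against 0 for all probe sets), led by Retnla (13.5) and Chil3 (9.97), secreted proteins of alternatively activated macrophages. With KO CAF CM 1 rose and 3 fell, and likewise after WT CAF CM, with a median of -0.09 in each. Il4ra was the gene that rose in both, and Pparg, a nuclear receptor gene, fell by 4.14 with KO CAF CM and by 4.36 after WT CAF CM; Egr2 fell by 1.7 with KO CAF CM and by 3.06 after WT CAF CM. Mrc1, the mannose receptor gene, fell by 3.87 with KO CAF CM and gave -1.15 after WT CAF CM without passing; it was lower with KO than with WT CAF CM by 2.72 log2 units (limma adjusted p = 0.00561). With IFNγ 6 rose and 4 fell, with Ch25h (7.46) and Tgm2 (3.5) highest and Egr2 and Mrc1 lowest.

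Of 20 targets of IL10, IL6 and STAT3, 12 rose and 2 fell with KO CAF CM (median 1.35, against -0.01 for all probe sets), and 13 rose and 4 fell with WT CAF CM (median 1.61, against -0.02). Lcn2 and Saa3, acute-phase genes, led both: Lcn2 rose by 9.29 and Saa3 by 8.4 with KO CAF CM, and by 9.54 and 8.66 with WT CAF CM. Fos fell by 1.5 with KO CAF CM and by 1.81 with WT CAF CM, and Etv3 by 1.3 and 1.27. Myc rose by 1.49 with KO CAF CM and fell by 1.66 with WT CAF CM; it was higher with KO than with WT CAF CM by 3.15 (limma adjusted p = 0.00225). The list is not a pure readout of STAT3, as its genes also answer other signals, and Hp is counted among the monocyte markers as well. IL4 raised 3, with Nfil3 (4.4) and Myc (2.09) ahead, and lowered 3; IFNγ raised 4, with Ptgs2 (6.51) and Pim1 (2.25) ahead, and lowered 2, Tnfrsf1b and Cebpd.

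Of 26 ISGF3 targets, 15 rose with KO CAF CM (median 1.03), 6 with WT CAF CM (median 0.68) and 21 with IFNγ (median 1.54), while 6 fell with IL4 (median -0.81). The antiviral gene Oasl1 rose by 2.66 with KO CAF CM, 1.61 with WT CAF CM and 5.06 with IFNγ, Zbp1 by 2.48, 2.19 and 3.44 in the same order, and Mx1 by 2.04 with KO CAF CM and 3.78 with IFNγ. Ifit3 fell by 3.05 and Ifit1 by 2.16 with IL4. That more of these genes passed with KO than with WT CAF CM does not show that the 2 differ: the median difference between them was 0.5, and the smallest adjusted p of the list in that comparison was 0.14, for Ifit1 (limma). All 20 measured IFNγ targets rose with IFNγ (median 3.27), led by the chemokine gene Cxcl9 (10.54) and the GTPase gene Iigp1 (9.51). With KO CAF CM 10 rose, Gbp2 (3.74) and Icam1 (3.25) most, and Irf8 fell by 0.92. With WT CAF CM 6 rose, Nos2 (3.12, from arrays at 7.22 and 9.46) and Cd274 (2.78) most. Gbp2 (2.75) and Icam1 (2.39) also rose with WT CAF CM, as Nos2 (2.58) and Cd274 (3.03) did with KO CAF CM. None of the 20 passed between KO and WT CAF CM (median 0.28). With IL4 3 rose, among them Cd274 (2.22) and Gbp2 (1.49), and 4 fell, among them Cxcl10 (by 2.92) and Fcgr1 (by 1.7).

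**Figure D5:**
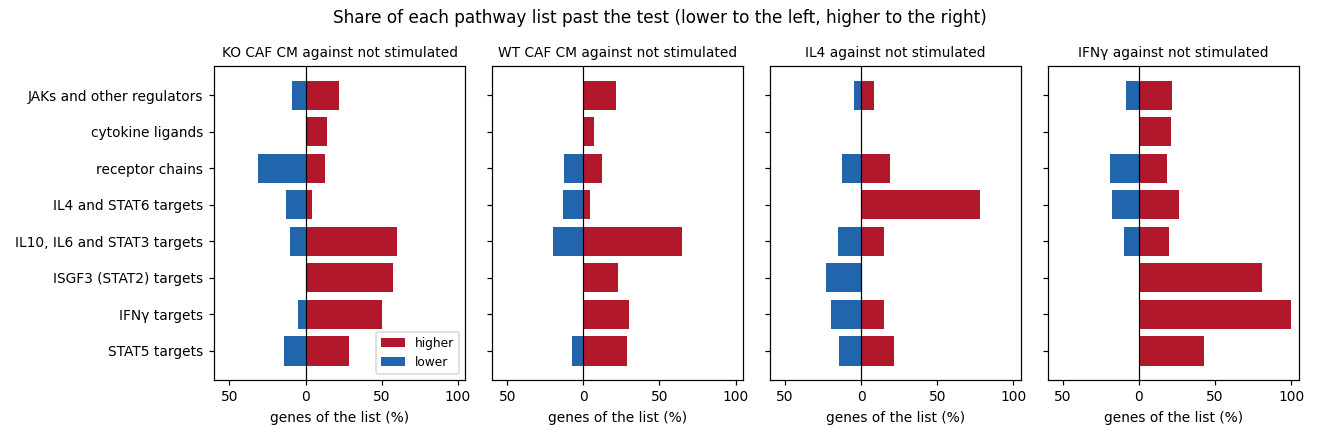
Share of the measured genes of each pathway list that rose (right of 0) or fell (left of 0) past the test, in percent, with KO CAF CM, WT CAF CM, IL4 and IFNγ against not stimulated. IL4 raised 18 of 23 IL4 and STAT6 targets, CAF CM raised 12 and 13 of 20 IL10, IL6 and STAT3 targets, and IFNγ raised all 20 IFNγ targets and 21 of 26 ISGF3 targets.

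The genes most like each inhibitor were found by Pearson correlation over the 10 arrays, among 1484 named probe sets whose condition means spanned at least 2 log2 units. For Socs3 they were Ccl5 (r = 0.982), C1rl (0.972) and Mif (0.969), and for Socs1 Psmb10 (0.964), Slamf8 (0.941) and Ripk3 (0.941). For Socs2 they were Il31ra (0.985), Smap2 and Rnase2a (both 0.984), and for Cish Mgl2 (0.987), Ankrd55 (0.978) and again Il31ra (0.976). Stat3 was most like 1600014C10Rik (0.981), Ifitm1 (0.979) and Apobec3 (0.976). These values describe 5 conditions with 2 arrays each and were the highest of many.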

How the data were processed

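Total RNA was labelled with the GeneChip WT PLUS kit and hybridised to Clariom S mouse arrays. The authors deposited log2 signals normalised with RMA, which corrects background, equalises the distributions of the arrays and summarises probes; versions are not given in the sources used here. Signals near the floor are compressed, so fold changes of dim genes can be understated. Of 22206 probe sets, 19572 carry 1 gene symbol, and 0 array columns were left out.

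All 10 arrays were fitted with limma 3.58.1 in R 4.3.3, with a mean per condition, 5 residual degrees of freedom and 6.43 prior ones. Within each comparison, Benjamini-Hochberg adjustment covered every probe set, at a threshold of 0.05. Standard errors come from this fit. Precision is limited by 2 arrays per condition. Python 3.11.15 and matplotlib 3.10.9 drew the plots and searched RefSeq promoters.

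The members and lists were chosen with earlier results of these data known. From each target list, at most the 2 called genes with the largest difference per direction and comparison were picked. A gene picked in 1 comparison may also be given in others, and Usp18 is given with the regulators. Of the JAKs, ligands and receptors, any gene called against no stimulation or between KO and WT CAF CM is named. Their calls between the other stimulated conditions are not given. Lists share genes: Il4ra, Il10ra, Osmr, Osm, Csf2rb, Pim1 and Usp18 are each in more than 1. Of the listed genes, Jak3, Il2rg, Ifi44, Gbp5, Cd74, Ccnd1 and Csf2rb2 were not analysed here. Alternatives were leaving out each array, a replicate block, a fit of only the 2 conditions, moderation by signal level with robust priors, quantile normalisation, median centring, leaving out the dimmest 33.3% of probe sets and a Student test.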

Additional observations from a re-analysis of the deposited data

How the results depend on the processing

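No called difference of the 9 genes changed sign under any alternative. The alternatives gave 370 values for the 34 called differences; 304 stayed past the threshold and 66 did not, namely all 34 under the adjusted Student test, 26 when 1 array was left out, and 6 others. That test, which estimates the spread from 4 arrays, called 2, 13, 13 and 4 probe sets for IL4, IFNγ, KO CAF CM and WT CAF CM against no stimulation, 7 for KO against WT CAF CM, 5 for IL4 against IFNγ, 1 and 8 for KO and WT CAF CM against IL4, and 13 and 8 for KO and WT CAF CM against IFNγ, with 0 of the 9 genes in each. The 6 others were Socs3 with IFNγ against no stimulation (adjusted p = 0.116 with moderation by signal level, 0.0533 with median centring), Socs3 in IL4 against IFNγ (0.0988 with that moderation), Socs1 with KO CAF CM (0.0875 with that moderation), and Stat2 in WT CAF CM against IL4 (0.0634 with quantile normalisation, 0.0987 in a fit of the 2 conditions), all by limma. Of the uncalled differences, 10 values passed: Stat2 (0.0479) and Stat6 (0.0457) with KO CAF CM against no stimulation under that moderation, Stat3 in KO CAF CM against IL4 under that moderation (0.0245) and without the dimmest probe sets (0.0432), Socs1 in KO CAF CM against IL4 under 4 alternatives (0.00554 to 0.0447), Socs3 in KO CAF CM against IFNγ in a fit of the 2 conditions (0.00277), and Socs3 between KO and WT CAF CM without WT CAF CM replicate 1 (0.00939). A fit of the 2 conditions called 104 probe sets between KO and WT CAF CM, against 302 in the fit of all arrays. A pair of uncalled differences changed sign under quantile normalisation, to -0.12 for Stat6 in WT CAF CM against IL4 and to -0.02 for Stat5a in WT CAF CM against IFNγ. The cause was not tested.

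Leaving out 1 array called 418 to 535 probe sets for IL4, 1642 to 1914 for IFNγ, 2003 to 2518 for KO CAF CM and 1021 to 1484 for WT CAF CM against no stimulation, against 898, 2679, 3292 and 1900 with all arrays. It called 142 to 191 between KO and WT CAF CM and 1560 to 2002 between WT CAF CM and IL4. Of the 9 genes, it called 1 to 2 with KO CAF CM, 1 to 3 with WT CAF CM and 0 to 1 between the CAF CM. It turned the sign of 19 uncalled differences or, for Stat2 between KO and WT CAF CM, brought the difference to 0. With all arrays, the largest of these differences was 0.72 log2 units in size. Against no stimulation, these spanned -0.11 to 0.27 (Cish), -0.46 to 0.21 (Socs2) and -0.32 to 0.06 (Stat5b) with KO CAF CM, -0.56 to 0.17 (Stat5a) with WT CAF CM, -0.02 to 0.26 (Stat5a), -0.1 to 0.22 (Stat5b) and -0.46 to 0.24 (Socs3) with IL4, and -0.59 to 0.08 (Socs2) and -0.16 to 0.22 (Cish) with IFNγ. Between KO and WT CAF CM they spanned 0 to 0.33 (Stat2) and -0.57 to 0.15 (Stat5a). Against IL4, WT CAF CM spanned -0.68 to 0.04 (Stat5a), -0.12 to 0.13 (Stat6) and -1.48 to 0.05 (Socs1). Against IFNγ, KO CAF CM spanned -0.45 to 0.2 (Stat5a), -0.14 to 0.38 (Socs2) and -0.08 to 0.18 (Cish), WT CAF CM -0.28 to 0.44 (Stat5a) and IL4 -0.02 to 0.23 (Stat6).

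The number in the titles was not used to pair samples: deviations of same-numbered arrays correlated at -0.05 to 0.19, above 0.1 for 3 of 10 pairs of conditions, so that it was not shown to mark pairs in all conditions. The block raised the count in each of the 10 comparisons, by less than 1.5 times. With that number as a replicate block, the probe sets called against no stimulation were 1100 for IL4, 2823 for IFNγ, 3431 for KO CAF CM and 2092 for WT CAF CM, with 406 between KO and WT CAF CM. Between stimulated conditions they were 2860 for IL4 against IFNγ, 3470 and 2650 for KO and WT CAF CM against IL4, and 3271 and 2753 for KO and WT CAF CM against IFNγ. The block changed no call of the 9 genes, whose counts stayed, in the order just given, at 3, 4, 2, 3, 0, 6, 4, 5, 3 and 4. Another probe set per gene could not be tried, as each gene has 1, and Cish has no value where the dimmest probe sets were left out.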

Other observations

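Some genes often placed downstream of STAT5 passed the test with each stimulus, though most did not. Of 14 such genes, 4 rose and 2 fell with KO CAF CM (median log2 difference 0.34, against -0.01 for all probe sets), 4 rose and 1 fell with WT CAF CM (median 0.22, against -0.02), 3 rose and 2 fell with IL4 (median 0.01, against 0), and 6 rose with IFNγ (median 0.72, against -0.01). Over all probe sets, 14.8%, 8.56%, 4.04% and 12.1% changed in these comparisons. Cd69, an early activation marker of leukocytes, had a log2 signal of 10.73 and 11.09 after KO CAF CM, 8.64 and 8.51 after WT CAF CM, 5.3 and 5.09 with IL4, 11.5 and 12.09 with IFNγ, and 6.49 and 6.09 without stimulation. No pair of conditions overlapped, and Cd69 was higher with KO than with WT CAF CM by 2.33 (limma adjusted p = 0.000798). Pim1, a survival kinase gene that is also in the STAT3 list, rose by 2.32 with KO CAF CM, by 2.25 after WT CAF CM, by 1.18 with IL4 and by 2.25 with IFNγ.

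Among the lower members of the STAT5 list, Id1 fell by 1.61 and Mcl1 by 0.71 with KO CAF CM, Bcl6 fell by 1.07 with WT CAF CM, and Cd69 fell by 1.09 with IL4. Ccnd3 fell by 1.29 with IL4 but rose by 1.67 with KO CAF CM, 1.74 with WT CAF CM and 1.67 with IFNγ. Bcl2, which protects cells from apoptosis, rose by 0.96 with KO CAF CM, 1.91 with IL4 and 0.99 with IFNγ, and the cyclin gene Ccnd2 rose by 4.05 with IFNγ. The list comes from several cell types, and binding of STAT5 was not measured.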
